A study of Mus musculus with 2 samples.

Results

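Retinoic acid synthesis, breakdown and binding was examined through 10 genes of the 32285 counted. Levels were compared between the fibroblasts, the RPE cells and the remaining cells of mouse RPE, choroid and sclera. The genes were chosen by name: Aldh1a1, Aldh1a2, Aldh1a3 and Dhrs3 act on retinaldehyde, Cyp26a1 and Cyp26b1 break retinoic acid down, Crabp1, Crabp2 and Rbp4 bind retinoids, and Rarb is a nuclear receptor. The data are droplet single-cell RNA counts (10x Genomics 5′ chemistry) from C57BL/6J mice aged 3 months. Control eyes received a subretinal injection of 1 µl of PBS and Dox eyes 1 µl of doxorubicin, a drug that damages DNA, at 100 ng/µl, and cells were collected after 7 days. Tissue of RPE, choroid and sclera, with the retina removed, was pooled from 10 eyes of 5 mice for each condition. With 1 library per condition there is no replicate, no test and no p-value. The drug, the pool of injected mice and the library cannot be told apart.

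Retinoic acid is made from vitamin A. Retinol reaches tissues on the plasma carrier Rbp4, which travels with transthyretin (Ttr), and is oxidized first to retinaldehyde and then, irreversibly, to retinoic acid by the Aldh1a enzymes. Dhrs3 reduces retinaldehyde back to retinol, the Cyp26 enzymes hydroxylate retinoic acid for removal, and the Crabp proteins carry it inside the cell. Retinoic acid binds receptors of the Rar family, which pair with Rxr proteins at response elements in DNA. RPE cells are better known for another use of vitamin A, the visual cycle, in which Lrat and Rpe65 regenerate the chromophore of the photoreceptors. The choroid beneath them is known as a source of retinoic acid in the eye.

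Rarb and Cyp26a1 are themselves textbook targets of retinoic acid. Their promoters are shown because, of the 8 genes searched, only these 2 held a direct repeat with a 5-base spacer (DR5). Each repeat has the half-site AGGTCA, the half-site GGGTCA, the half-site AGTTCA or the half-site GGTTCA, then 5 bases of any kind, then again 1 of these 4, on either strand. The 250 bases before a start site are given 5′ to 3′ in the direction of transcription, from RefSeq on GRCm38.p6, with the DR5 in capitals. The Rarb window is chr14:16575477-16575726 on the minus strand, before an internal start of the gene, and the Cyp26a1 window is chr19:37697558-37697807 on the plus strand.
Rarb: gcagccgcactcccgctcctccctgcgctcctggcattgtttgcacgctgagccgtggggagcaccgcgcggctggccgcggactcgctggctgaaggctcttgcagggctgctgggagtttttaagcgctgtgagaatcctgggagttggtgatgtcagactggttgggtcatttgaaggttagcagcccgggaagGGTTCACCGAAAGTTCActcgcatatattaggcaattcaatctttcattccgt
Cyp26a1: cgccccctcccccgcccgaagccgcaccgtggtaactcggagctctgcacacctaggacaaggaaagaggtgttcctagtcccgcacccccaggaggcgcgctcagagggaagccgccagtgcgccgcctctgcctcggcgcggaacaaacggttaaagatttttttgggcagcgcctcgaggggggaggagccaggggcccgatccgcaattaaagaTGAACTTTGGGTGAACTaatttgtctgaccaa
In Rarb the DR5 lay from base -53 to base -37 relative to the start, in the direction of the gene. In Cyp26a1 it lay from base -32 to base -16 and read on the opposite strand. The search covered 300 bases of each promoter (250 before and 50 from the start), and 32 of 32851 promoters, 0.0974%, held a DR5. The same half-sites 1 base apart (DR1) were in 73 promoters (0.222%) and 2 bases apart (DR2) in 88 (0.268%), none of them among the 12 promoters given for 8 of the 10 genes. Promoters of Aldh1a3 and Crabp2 were not analysed here. A match of letters is a description and not evidence of binding.

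The control library held 20381 barcodes with 117731270 UMIs (unique molecular identifiers, 1 per captured RNA molecule), and the Dox library 15649 with 103997248. After the filter of the study's methods, 20180 and 15426 cells remained, with a median of 4495 and 4995 UMIs. Fibroblasts were cells with at least 5 UMIs of Dcn (decorin, a collagen-binding proteoglycan) that also reached 2000 counts per 1000000 UMIs of the cell (CPM), and numbered 11464 in control and 8357 in Dox. RPE cells had at least 10 UMIs of Rpe65 and numbered 1336 and 1490. The 190 and 140 cells that met both rules were set aside, which left 7190 and 5439 other cells. The 8 fibroblast markers summed to 22949 and 23663 CPM in fibroblasts against 744 and 482 in RPE cells. The 8 RPE markers summed to 105139 and 104118 in RPE cells against 3302 and 5056 in fibroblasts. Dcn and Rpe65, which chose the cells, are in these sums, so the sums are no independent check of the labels. Dcn alone was at 10558 and 9736 CPM in fibroblasts, and Ttr at 72880 and 72954 in RPE cells. All 8 markers of each list were detected in the cells of the other label too. RPE cells were deeper, with a median of 16682.5 and 19084.5 UMIs, against 4958.5 and 5550 in fibroblasts. The libraries shared 441 barcodes, 427 of them among kept cells. No doublet caller was run. All intervals in brackets are 95% intervals of counting error (exact Poisson for CPM, exact conditional binomial for a ratio, Clopper-Pearson for a share of cells). Levels are UMIs of 5′ tags and are compared between cells, not between genes.

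Most of these genes were higher in fibroblasts than in RPE cells. Between fibroblasts and RPE cells, 8 of the 10 were at least 2-fold higher in fibroblasts in both libraries, against 29.1% of the 16526 genes with at least 20 UMIs. They were Aldh1a1, Aldh1a2, Aldh1a3, Cyp26a1, Cyp26b1, Crabp1, Crabp2 and Rarb. Crabp1 reached 20 UMIs only through fibroblasts, with 18 and 13 UMIs there against 1 and 0 in RPE cells. Its call in Dox rests on RPE cells being taken at 3 UMIs. Dhrs3 alone of the 10 was at least 2-fold higher in RPE cells (15.5% of all genes were), and Rbp4 passed neither limit. The median log2 ratio of fibroblasts over RPE cells was 2.94 over the 10 genes in control and 4.25 in Dox, against 0.34 and 0.32 over all genes tested.

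Aldh1a2 (chr9:71215789-71296243), a retinaldehyde dehydrogenase known from the mesenchyme of the embryo, gave 27668 UMIs over both libraries. Its level in fibroblasts was 191.7 CPM in control [188.3, 195.1] and 184.8 in Dox [181.1, 188.7]. In RPE cells it was 9.29 [8.10, 10.6] and 5.27 [4.47, 6.17]. The ratio of fibroblasts over RPE cells was thus 20.6 [18.03, 23.7] in control and 35.1 [29.9, 41.4] in Dox. With every cell thinned to 2000 UMIs, an Aldh1a2 UMI was found in 26.8% and 25.5% of fibroblasts, in 2.30% and 1.17% of RPE cells, and in 0 of 168 and 1 of 107 NK or T cells. These counts allow a share of up to 2.17% and 5.10% there (upper Clopper-Pearson limit). NK or T cells, which should lack the gene, had a median of 3404 and 3439 UMIs before thinning. Without thinning the shares were 48.7% and 48.3% of fibroblasts, 10.0% and 6.17% of RPE cells and 1.69% and 0.862% of NK or T cells.

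Aldh1a1 (chr19:20492715-20643465), the dehydrogenase known from the dorsal retina and the lens, had the same pattern. It stood at 66.3 CPM [64.3, 68.3] in control fibroblasts and 73.2 [70.8, 75.6] in Dox fibroblasts, against 2.39 [1.80, 3.10] and 1.78 [1.33, 2.33] in RPE cells. The ratios were 27.8 [21.3, 36.8] and 41.1 [31.3, 55.2]. Aldh1a1 has a near-identical neighbour, Aldh1a7, so that reads may be shared between them. For Aldh1a7, 5 UMIs in control and 0 in Dox were counted, and the part of shared reads was not tested. Aldh1a3 (chr7:66390890-66427517), the third enzyme that makes retinoic acid, was sparse. Its level was 8.58 CPM [7.88, 9.33] and 8.97 [8.16, 9.84] in fibroblasts, and the 15 and 11 UMIs in RPE cells gave 0.640 and 0.377 CPM. The ratios of 13.4 [8.06, 24.1] and 23.8 [13.2, 48.1] were therefore less precise.

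Dhrs3 (chr4:144892827-144928209) ran opposite to the dehydrogenases. RPE cells held 71.1 CPM [67.7, 74.6] in control and 65.3 [62.4, 68.3] in Dox, and fibroblasts 31.6 [30.2, 33.0] and 26.6 [25.2, 28.1]. RPE cells were 2.25-fold [2.11, 2.40] and 2.46-fold [2.29, 2.64] higher. The enzyme that returns retinaldehyde to retinol was thus higher in the cells that had less of the 3 enzymes that turn retinaldehyde into retinoic acid. After thinning, 13.6% and 14.6% of RPE cells held a Dhrs3 UMI, against 5.97% and 5.10% of fibroblasts and 4.17% and 3.74% of NK or T cells.

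Cyp26a1 (chr19:37697798-37701536) had the largest ratio between fibroblasts and RPE cells in both libraries among the genes with UMIs in both. Fibroblasts held 126.8 CPM [124.0, 129.6] in control and 109.1 [106.2, 112.0] in Dox, and RPE cells 3.92 [3.16, 4.81] and 1.403 [1.01, 1.90]. The ratios were 32.3 [26.3, 40.1] and 77.8 [57.2, 108]. That interval overlaps those of Aldh1a1 and Crabp2 in control and that of Crabp2 in Dox, so the order among these genes is not resolved. Control NK or T cells had Cyp26a1 at 3.02 CPM (2 UMIs) and Crabp2 at 4.53 (3 UMIs), and Dox ones had 0 and 1 UMIs. With so few UMIs, RPE cells were not separated from NK or T cells in either library for Cyp26a1, Crabp2, Aldh1a1, Aldh1a2 or Aldh1a3. The ratios of these genes over RPE cells, and their rise in Dox, rest on such RPE levels. Of all Cyp26a1 UMIs in kept cells, 90.1% and 92.9% were in fibroblasts. Fibroblasts were 56.8% and 54.2% of kept cells. They held 63882058 of the 115611226 UMIs of all genes in control and 50047330 of 99273166 in Dox. Cyp26b1 (chr6:84571414-84593908), the other hydroxylase, was close to the limit of detection with 405 UMIs in all. It stood at 2.14 CPM [1.80, 2.54] and 3.24 [2.76, 3.78] in fibroblasts, and its 14 and 11 UMIs in RPE cells gave ratios of 3.59 [2.07, 6.75] and 8.60 [4.68, 17.6].

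Crabp2 (chr3:87948666-87953376), which hands retinoic acid to its receptors, was at 78.3 CPM [76.1, 80.5] and 74.1 [71.8, 76.6] in fibroblasts and at 2.56 [1.95, 3.29] and 1.51 [1.09, 2.02] in RPE cells. The ratios were 30.6 [23.7, 40.2] and 49.2 [36.6, 67.9]. Its relative Crabp1 (chr9:54764748-54773110) had 18 and 13 UMIs in fibroblasts. RPE cells had 1 Crabp1 UMI in control, for a ratio of 6.61 [1.04, 275], and 0 in Dox. With RPE cells taken at 3 UMIs the Dox ratio is 2.53, and with counting error in both groups its lower limit is 1.78, under the limit of 2. Rbp4 (chr19:38116629-38125281) was low in every group, at 9.91 [9.15, 10.7] and 11.9 [10.99, 12.9] CPM in fibroblasts against 6.74 [5.73, 7.87] and 7.15 [6.22, 8.19] in RPE cells. These are ratios of 1.47 [1.23, 1.76] and 1.67 [1.42, 1.96].

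Rarb (chr14:16430839-16819156) differed least of the 8 genes that were higher in fibroblasts. Its level was 38.1 CPM [36.6, 39.7] and 40.3 [38.6, 42.1] in fibroblasts and 17.3 [15.6, 19.0] and 19.0 [17.4, 20.6] in RPE cells. The ratios of 2.21 [1.99, 2.46] and 2.13 [1.93, 2.34] lie near the limit of 2, and Rarb no longer reached it in both libraries with the top 10% of UMIs left out, with the mean of the cells' own CPM or with cells thinned to 2000 UMIs. Both promoters printed above thus belong to genes that were higher in fibroblasts, with ratios far apart.

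**Figure D1:**
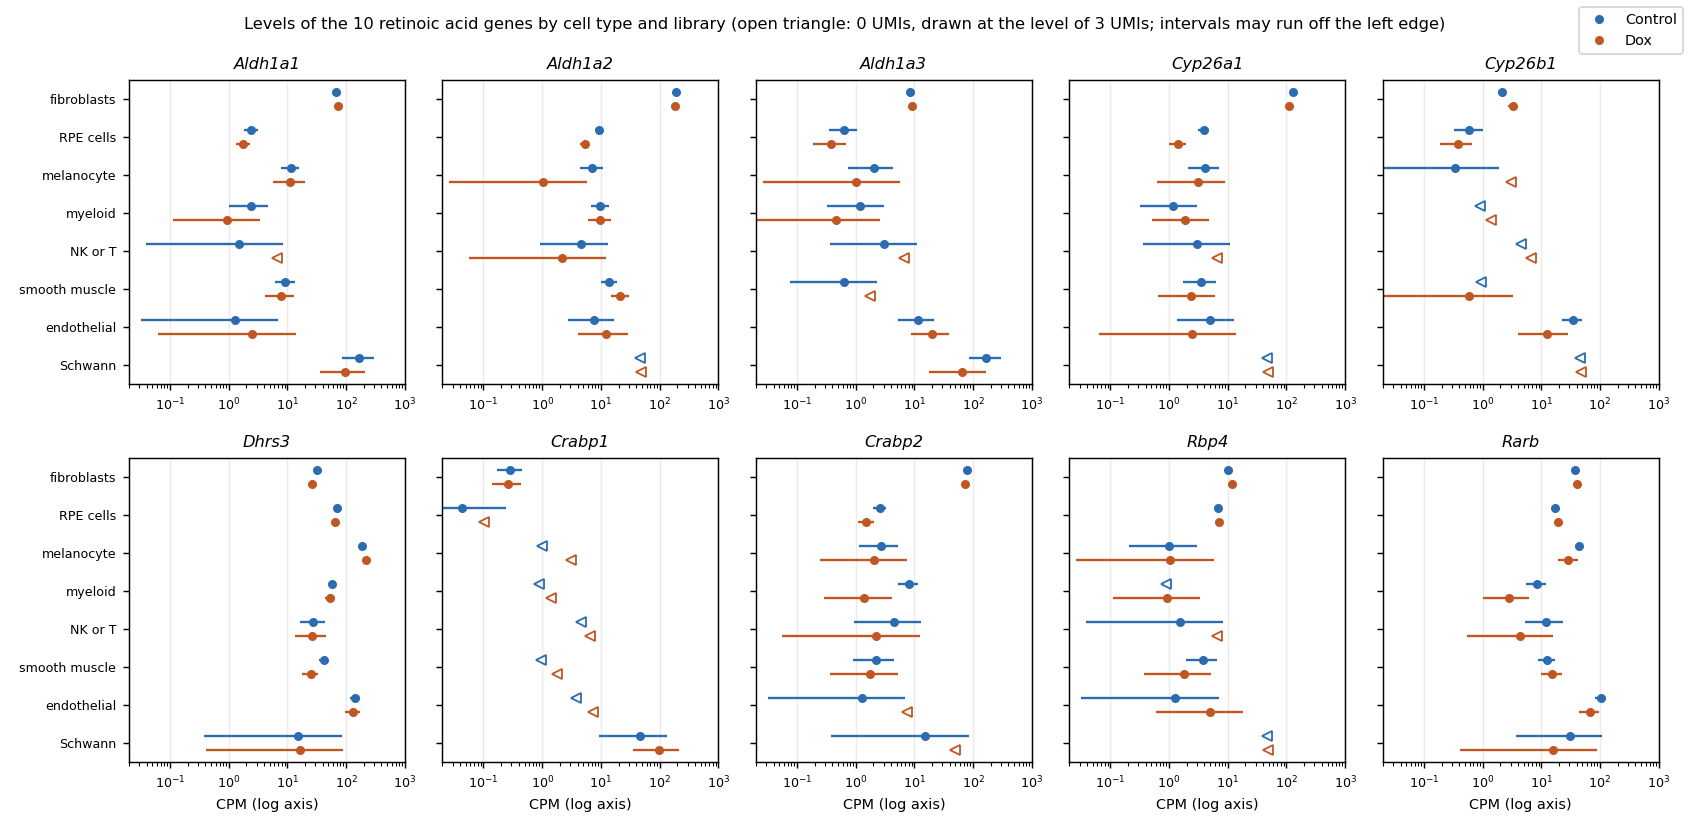
Level of each of the 10 genes (CPM, log axis) in each group of cells, with 1 point for each library (control and Dox) and a bar for the 95% counting interval. Aldh1a1, Aldh1a2, Cyp26a1 and Crabp2 stand highest in fibroblasts among the plotted cell types other than Schwann cells (the unnamed cells of low Dcn are not plotted), while Dhrs3 stands highest in melanocytes and endothelial cells. An open triangle marks 0 UMIs, drawn at the level of 3.

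Several of the genes higher in fibroblasts moved with Dcn among RPE cells. Dcn was at 225 CPM in control RPE cells and 120 CPM in Dox RPE cells, a level that the rules choosing the cells also set. RPE cells were divided, after these values had been seen, into the 469 (control) and 671 (Dox) with no Dcn UMI and the 867 and 819 with at least 1. Aldh1a2 was at 1.24 CPM [0.569, 2.36] and 1.71 [1.06, 2.61] in the cells with no Dcn UMI, against 12.9 [11.2, 14.8] and 7.85 [6.58, 9.31] in the others. Aldh1a1 stood at 0.277 (2 UMIs) and 0.163 (2 UMIs) against 3.33 and 2.95. Cyp26a1 was at 0.691 (5 UMIs) and 0.977 (12 UMIs) against 5.36 and 1.71, and Crabp2 at 0.691 (5 UMIs) and 0.407 (5 UMIs) against 3.39 and 2.30. In all of these pairs the cells with a Dcn UMI were higher, although the intervals of Cyp26a1 in Dox overlap.

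Dhrs3, Rarb and Rbp4 did not follow Dcn. Dhrs3 was at 73.7 [67.6, 80.2] and 65.9 [61.4, 70.6] CPM in RPE cells with no Dcn UMI and at 70.0 [65.9, 74.1] and 64.9 [61.1, 68.9] in the others. Rarb was at 17.6 and 18.5 against 17.1 and 19.3, and Rbp4 at 7.33 and 5.94 against 6.47 and 8.03, with overlapping intervals in each library. Aldh1a3 had 0 and 1 UMIs in the cells with no Dcn UMI and 15 and 10 in the others, and Crabp1 had 1 UMI in all. Cyp26b1 had 7 and 3 against 7 and 8 UMIs, or 0.968 and 0.244 CPM against 0.431 and 0.472. It was thus higher without Dcn in control and lower in Dox, with overlapping intervals in each library. The part of carried-over RNA or of merged cells in the RPE values of Aldh1a1, Aldh1a2, Cyp26a1 and Crabp2 was not tested. RPE cells with no Dcn UMI were shallower, at a median of 14447 and 16776 UMIs against 18009 and 20594.

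The same genes were set against the cells that met neither rule. Cyp26a1 and Crabp2 were the 2 of 10 at least 2-fold higher in fibroblasts than in this rest in both libraries (2.65% of 16846 genes were), and 0 of 10 were at least 2-fold higher in the rest (16.9%). For Cyp26a1 the ratio was 5.29 [4.87, 5.76] in control and 8.19 [7.20, 9.37] in Dox. For Crabp2 it was 3.96 [3.61, 4.34] and 4.499 [3.996, 5.08]. Aldh1a1 (1.95 and 1.77), Aldh1a2 (1.57 and 1.39) and Rbp4 (1.97 and 1.504) fell short of the limit, and Dhrs3 was higher in the rest by 2.09-fold [1.95, 2.23] and 1.87-fold [1.72, 2.04]. Crabp1 was also higher in the rest, by 1.26-fold [0.497, 2.95] and 2.78-fold [1.19, 6.50], from 9 and 13 UMIs there.

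**Figure D2:**
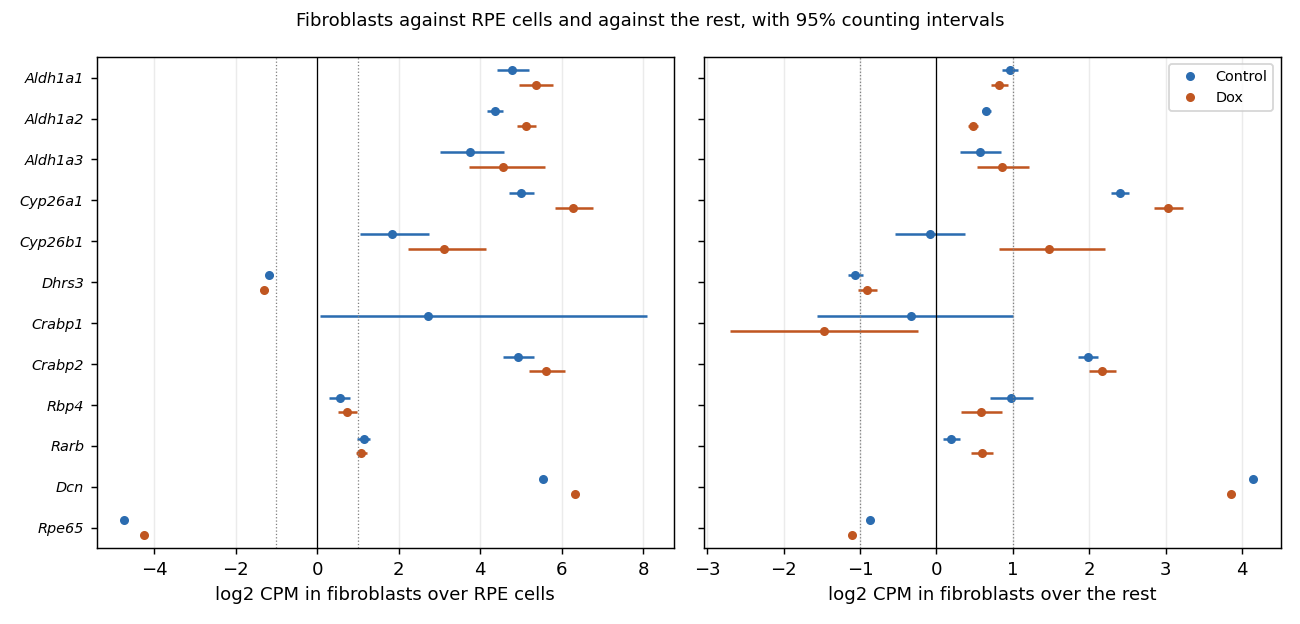
Ratio of the level in fibroblasts to that in RPE cells and to that in the rest (log2, x axis) for each gene and library, with 95% counting intervals. Of the ratios drawn for the 10 genes, that of Cyp26a1 lies farthest to the right in both panels and that of Dhrs3 to the left of 0. Dotted lines mark 2-fold, ratios with a group at 0 UMIs are not drawn, and Dcn and Rpe65, which chose the cells, are shown for scale.

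The rest was divided by marker genes with limits set after the data had been seen (at least 5 UMIs, with 5000 CPM, or 10000 CPM for melanocytes and for cells of low Rpe65). Much of the rest's signal came from 2374 and 1855 cells that carried fibroblast markers but too little Dcn for the fibroblast rule, were led by Coch, Nnat and Tcf21, and are given no name. Aldh1a2 was at 285 CPM [274, 296] and 257 [246, 268] in these cells, above the fibroblasts, and they held 2766 of the 3095 Aldh1a2 UMIs of the control rest. Cyp26a1 was lower there than in fibroblasts, at 49.9 [45.6, 54.6] and 22.0 [18.9, 25.4]. Aldh1a2 and Cyp26a1 thus differed from fibroblasts in opposite directions in these cells. Low Dcn placed these cells in the rest, and within fibroblasts Dcn was higher where Cyp26a1 was (given below). The part of the Dcn limit in these differences was not tested.

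Melanocytes, the pigment cells of the choroid (911 and 324 cells), were the cells with the highest Dhrs3, at 190 CPM [175, 206] and 221 [193, 253], which is 6.01-fold [5.47, 6.61] and 8.32-fold [7.18, 9.62] above fibroblasts. Endothelial cells (217 and 94) followed at 143 [118, 172] and 130 [96.8, 170], 4.52-fold [3.70, 5.46] and 4.88-fold [3.62, 6.43] above fibroblasts. The intervals of these 2 cell types did not overlap in either library. Below them came RPE cells and myeloid cells (674 and 371 cells), where Dhrs3 was at 58.1 [50.3, 66.8] and 53.1 [43.8, 63.8].

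Endothelial cells were also the cells with the highest Rarb, at 104 CPM [82.4, 129] and 67.3 [44.4, 98.0], 2.72-fold [2.15, 3.39] and 1.67-fold [1.10, 2.44] above fibroblasts. Melanocyte Rarb, at 44.1 [36.9, 52.3] and 28.7 [19.1, 41.5], was not separated from that of fibroblasts in either library. Cyp26b1 reached 34.1 CPM [22.5, 49.6] in control endothelial cells from 27 UMIs and 12.5 [4.05, 29.1] in Dox from 5. The control value was 15.9-fold [10.1, 24.2] above fibroblasts, and the Dox value 3.85-fold [1.23, 9.17].

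The 26 and 20 Schwann cells, which ensheathe nerves, had a profile of their own from few molecules. Aldh1a3 was at 168 CPM [83.9, 301] from 11 UMIs in control and at 64.5 [17.6, 165] from 4 in Dox, 19.6-fold [9.72, 35.3] and 7.19-fold [1.95, 18.5] above fibroblasts. Crabp1, with 54 UMIs in the whole data set, gave 3 and 6 of them in Schwann cells, a ratio of 163 [30.7, 557] and 373 [116, 1051] over fibroblasts. Aldh1a1 had 11 and 6 UMIs there and Aldh1a2 0 and 0, where 3 UMIs would be 45.8 and 48.4 CPM. In control, none of the 10 was above its level in fibroblasts in NK or T cells (178 cells), and in smooth muscle cells (711 cells) only Dhrs3 was, at 41.7 CPM [34.9, 49.5].

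Genes of the same pathway beyond the 10 were compared in the same way. Of 16 further genes listed by role, 14 had at least 20 UMIs in fibroblasts and RPE cells, 5 were at least 2-fold higher in RPE cells (15.5% of all genes were) and 6 in fibroblasts (29.1%), in both libraries. Higher in RPE cells than in fibroblasts were the retinol receptor Stra6 (25.2- and 18.8-fold) and the plasma carrier Ttr (33.2 and 20.8). So were Lrat, which stores retinol as ester (18.9 and 15.9), Rdh10, which makes retinaldehyde (13.6 and 11.7), and the receptor Rxrg (2.17 and 5.09). Rxrg was at 2.34 and 3.76 CPM in RPE cells and at 3.03 and 2.44 in the rest. In Schwann cells Rxrg was at 199 and 177 CPM, from 13 and 11 UMIs. Fibroblasts exceeded RPE cells in the alcohol dehydrogenases Adh1 (17.6- and 33.8-fold) and Adh7 and the retinoic acid carrier Fabp5 (8.82 and 24.3). The same held for the receptors Rara (10.6 and 11.7) and Rarg (10.7 and 13.4) and the retinoid-induced transglutaminase Tgm2 (12.9 and 23.7). Of these 6, only Adh7 was also at least 2-fold above the rest in both libraries (2.65% of all genes were). Tgm2 was level with the rest (ratios of 1.05 and 0.991). Fabp5 was higher in the rest, at 133 and 195 CPM against 91.0 and 91.5 in fibroblasts. Adh7 had 33 and 31 UMIs in fibroblasts and 0 and 0 in RPE cells, ratios of 4.04 and 6.03 with RPE cells taken at 3 UMIs and lower limits of 3.10 and 4.62 with counting error in both groups. Stra6 and Lrat, of retinol uptake and storage, thus stood higher in RPE cells, together with Rdh10, and the Aldh1a, Cyp26 and Crabp genes and all 3 Rar receptors in fibroblasts. Rxra, Rxrb and Nrip1 did not reach 2-fold between fibroblasts and RPE cells in both libraries. Cyp26c1 and Aldh1a7 had too few UMIs to be compared. Ttr and Lrat are also in the RPE marker list, and Ttr was found in every cell type. Stra6, Lrat and Rdh10 were found in NK or T cells too, at 57.4 and 39.6, 115 and 128, and 81.6 and 59.4 CPM. Fibroblasts held 33.1 and 45.3, 69.6 and 74.8, and 57.7 and 65.0 CPM of these genes. The part of carried-over RNA in these levels was not tested.

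Within the fibroblasts, Cyp26a1 was held by few cells. At least 5 Cyp26a1 UMIs were found in 508 control fibroblasts (4.43%) and 361 Dox fibroblasts (4.32%), and these held 59.8% and 60.8% of the gene's UMIs, with up to 66 and 49 in 1 cell. Crabp2 was also uneven, with 40.1% and 37.4% of its UMIs in 273 and 188 cells. Aldh1a1, by contrast, had 6 and 10 such cells, with 0.708% and 1.502% of its UMIs. The variance of the UMI count per cell was 8.07 and 7.68 times its mean for Cyp26a1, 4.21 and 4.16 for Crabp2, 2.47 and 2.68 for Aldh1a2 and 1.18 and 1.21 for Aldh1a1.

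Fibroblasts were divided into kinds by genes named for this purpose, with UMI limits set after the data had been seen, which deeper cells reach more easily. Those with at least 15 UMIs of Myoc (myocilin, a secreted glycoprotein known from the trabecular meshwork) numbered 737 and 540, with a median of 6856 and 7168.5 UMIs. Fibroblasts with none of the 4 marks, called unmarked, numbered 8594 and 6164, with 4720 and 5341.5. Between these, 3 of the 10 genes were at least 2-fold higher in Myoc-high cells in both libraries (1.89% of 15362 genes were) and 2 at least 2-fold lower (2.99%).

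The 3 higher genes were both hydroxylases and Crabp2. Cyp26a1 was at 380 CPM [363, 397] in control and 360 [341, 379] in Dox in Myoc-high cells, against 79.2 [76.6, 81.8] and 64.0 [61.4, 66.8] in unmarked cells, which is 4.798-fold [4.54, 5.07] and 5.62-fold [5.25, 6.01]. Crabp2 was 2.07-fold [1.91, 2.23] and 2.11-fold [1.93, 2.31] higher, at 152 and 150 CPM against 73.5 and 70.8. Cyp26b1 was 3.07-fold [1.62, 5.55] and 3.83-fold [2.08, 6.80] higher, from 16 and 18 UMIs in Myoc-high cells. The enzymes of synthesis did not share this pattern. Aldh1a2 was at 173 and 184 CPM in Myoc-high cells and at 195 and 188 in unmarked cells, and Aldh1a1 at 49.4 and 53.5 against 66.5 and 74.3. Aldh1a3 was 3.51-fold [2.07, 6.48] and 7.09-fold [3.01, 22.0] lower in Myoc-high cells, where it had 14 and 5 UMIs, and Rbp4 3.11-fold [1.94, 5.29] and 2.87-fold [1.77, 4.97] lower. Crabp1 had 0 UMIs there in both libraries, where 3 UMIs would be 0.568 and 0.771 CPM, above its level in unmarked cells. Of the further genes, Adh1 and Tgm2 were at least 2-fold lower.

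The other kinds differed again. Fibroblasts with Tnmd or Chad, tendon and cartilage genes (112 and 85 cells), had Cyp26a1 at 342 [308, 379] and 269 [234, 307] CPM and Aldh1a2 at 96.3 [78.5, 117] and 102 [81.2, 127], the lowest Aldh1a2 of the single kinds with over 10 cells. Fibroblasts with Cxcl9 or Cxcl10, chemokines induced by interferon (1581 and 1262 cells), had the reverse, with Cyp26a1 at 38.5 [34.6, 42.8] and 30.6 [26.8, 34.7] and Aldh1a2 at 236 [226, 247] and 198 [188, 208]. Rarb ranged from 18.9 to 52.4 CPM over the kinds with more than 10 cells and both libraries. The 433 and 303 cells with marks of more than 1 kind had the most Cyp26a1, at 469 [448, 491] and 478 [453, 504]. These cells had a median of 8727 and 9377 UMIs, and the part of merged cells among them was not tested.

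**Figure D3:**
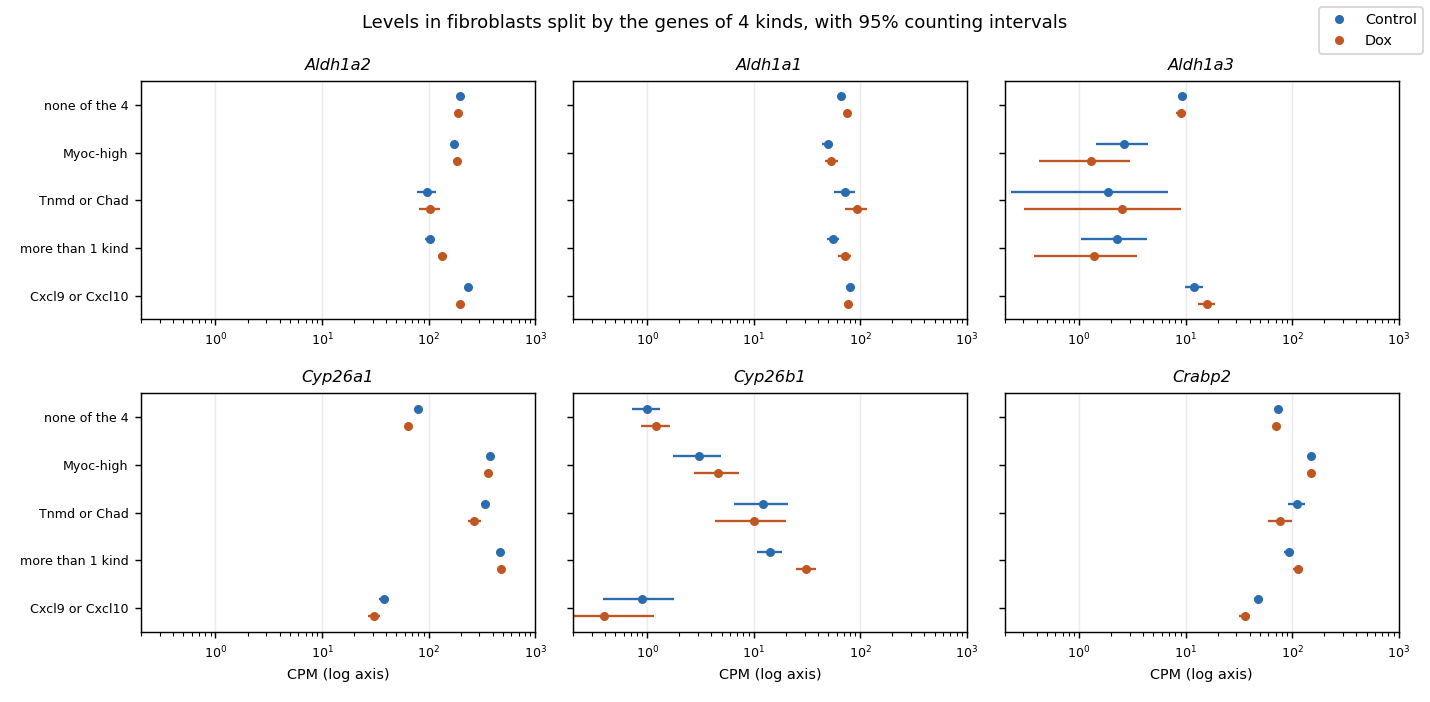
Levels (CPM, log axis) in the kinds of fibroblast, with 1 point per library and 95% counting intervals. Cyp26a1 and Crabp2 are higher in Myoc-high than in unmarked cells in both libraries, and Aldh1a3 is lower.

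Fibroblasts were also divided by Cyp26a1 itself. In cells with at least 5 Cyp26a1 UMIs, Myoc was at 7199 and 7971 CPM, against 550 and 595 in cells with none. Dcn, which chose the fibroblasts, was at 13933 and 14901 CPM in the former and at 9661 and 8581 in the latter. Adh1, which oxidizes retinol, went the other way, from 60.9 [58.7, 63.2] and 50.7 [48.5, 53.0] CPM in cells with no Cyp26a1 UMI to 6.399 [4.29, 9.19] and 4.10 [2.24, 6.88] in those with 5 or more. Aldh1a2 was at 197 and 185 in the former and at 151 [140, 163] and 136 [124, 149] in the latter. The cells with 5 or more were deeper, at a median of 8520.5 and 9105 UMIs against 4545 and 5226. At a fixed depth of 2000 UMIs, a Crabp2 UMI was found in 15.5% [13.6, 17.7] and 14.9% [12.5, 17.6] of fibroblasts with a Cyp26a1 UMI, and in 8.13% [7.59, 8.69] and 8.65% [8.004, 9.32] of those without. A Cyp26a1 UMI was found in 11.2% [10.1, 12.4] and 10.1% [8.85, 11.5] of cells with Aldh1a2 and in 11.6% [10.9, 12.3] and 10.1% [9.33, 10.9] of cells without. For Rarb the shares were 8.62% [7.63, 9.70] and 9.30% [8.07, 10.6] of cells with Aldh1a2 against 6.91% [6.36, 7.49] and 6.49% [5.88, 7.15] of cells without.

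Dox and control fibroblasts were close for these genes. The median log2 ratio of Dox over control over the 10 was 0.0064, against 0.0002 over the 15744 genes tested. A ratio of 1.5 was reached upward by 1 gene, Cyp26b1 (2.43% of all genes), and downward by 0 (7.06%). The log2 ratios of the other 9 ran from -0.25 [-0.35, -0.15] for Dhrs3 to 0.27 [0.10, 0.43] for Rbp4. That of Cyp26a1 was -0.22 [-0.27, -0.17], that of Aldh1a2 -0.05 [-0.09, -0.01], that of Aldh1a1 0.14 [0.08, 0.21] and that of Rarb 0.08 [-0.0049, 0.17].

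Cyp26b1 was at 0.59 [0.26, 0.93] on the log2 scale, from 137 UMIs in control fibroblasts and 162 in Dox. Of the 162, 68 lay in 8 cells that held at least 5 each, 7 of which were Myoc-high or carried marks of more than 1 kind. No control fibroblast had more than 4. The remaining 94 UMIs gave 1.88 CPM [1.52, 2.30] in Dox against 2.14 [1.80, 2.54] in control. The higher level in Dox thus rested on those 8 cells. Their median depth was 13718.5 UMIs, against 5550 over all Dox fibroblasts, and the part of merged cells among them was not tested. Of the further genes only Ttr reached a ratio of 1.5 in fibroblasts, at 2197 CPM in control and 3507 in Dox. Ttr in RPE cells was at 72880 and 72954 CPM. Rpe65 in fibroblasts was higher in Dox by a log2 of 0.44, a level that the rules choosing the cells also limit. The part of carried-over RNA in these levels was not tested.

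In RPE cells 9 of the 10 genes had at least 20 UMIs, and 5 of 9 were at least 1.5-fold lower in Dox (7.86% of 13937 genes were) and 0 of 9 higher (2.96%). They were Aldh1a2 at a log2 of -0.82 [-1.13, -0.51], Aldh1a3 at -0.76 [-2.03, 0.46], Cyp26a1 at -1.48 [-2.05, -0.94], Cyp26b1 at -0.66 [-1.95, 0.58] and Crabp2 at -0.76 [-1.36, -0.18]. The intervals of Aldh1a3 and Cyp26b1 include 0. Dcn was lower in the same cells, at a log2 of -0.90, from 5286 UMIs in control to 3522 in Dox. The summed fibroblast markers, which include Dcn, went from 744 to 482 CPM. In RPE cells with no Dcn UMI, Aldh1a2, Dhrs3, Rbp4 and Rarb alone had at least 20 UMIs, and 0 of these 4 differed by 1.5-fold. Of these 4, only Aldh1a2 was among the 5 lower in all RPE cells, and no share over all genes was taken here. In the cells with no Dcn UMI the log2 ratio was 0.46 for Aldh1a2 (9 and 21 UMIs) and 0.50 for Cyp26a1 (5 and 12), both turned. That of Crabp2 stayed at -0.76 (5 and 5) and that of Cyp26b1 was -1.99 (7 and 3). For each of these genes the CPM intervals of control and Dox overlapped. Over all RPE cells the log2 ratio was -0.12 [-0.22, -0.03] for Dhrs3, 0.09 [-0.22, 0.39] for Rbp4 and 0.14 [-0.05, 0.32] for Rarb. The part of carried-over RNA or of merged cells in the differences between Dox and control RPE cells was not tested.

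Of the further genes, Adh1, Fabp5 and Tgm2 were at least 1.5-fold lower in Dox RPE cells (log2 -1.16, -1.45 and -0.82). All of these were higher in fibroblasts than in RPE cells, and the part of carried-over RNA in their lower levels was not tested. Rxrg was higher in Dox RPE cells, from 55 to 110 UMIs (log2 0.68 [0.20, 1.18]). In the unnamed cells with fibroblast markers and low Dcn, Cyp26a1 was lower in Dox, at a log2 of -1.18 [-1.44, -0.94], the 1 of 9 genes past 1.5-fold downward (5.57% of 12929 genes), and 0 of 9 were higher (2.99%). Their Myoc was lower as well, at a log2 of -0.46, and its part in the Cyp26a1 difference was not tested.

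**Figure D4:**
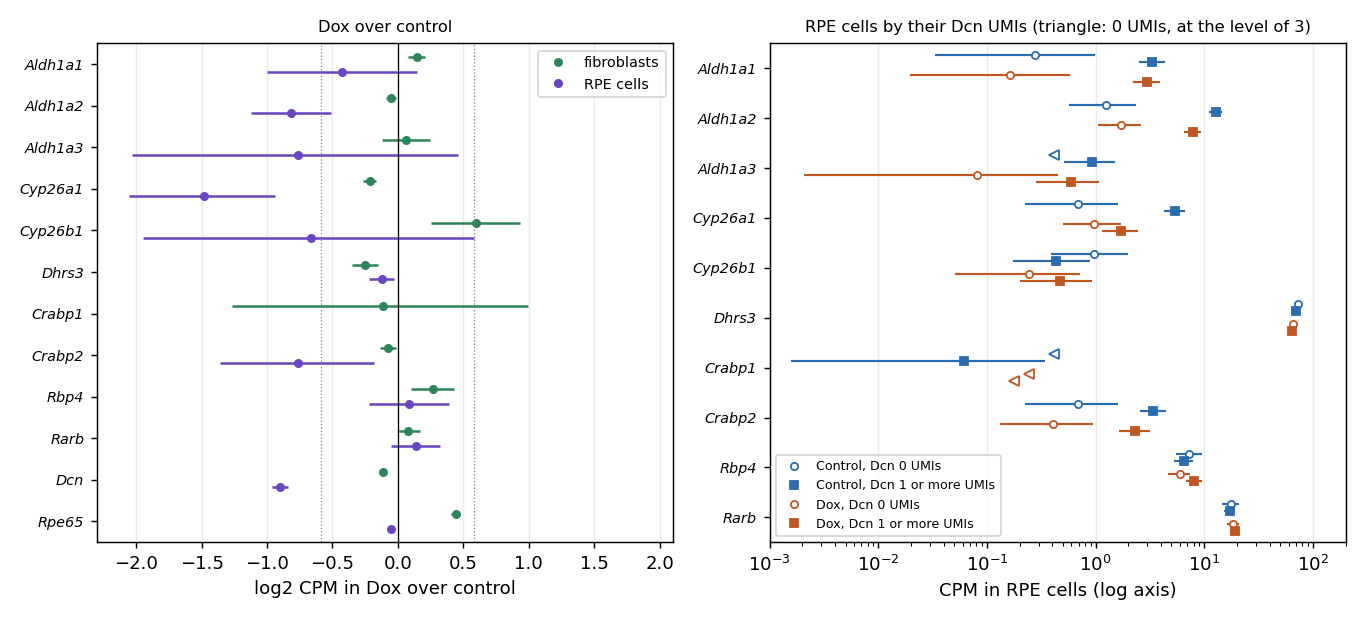
Left, log2 ratio of Dox over control for each gene and for Dcn and Rpe65, in fibroblasts and RPE cells with 95% counting intervals. Right, levels in RPE cells (CPM, log axis) with no Dcn UMI and with at least 1, by library. Aldh1a1, Aldh1a2, Cyp26a1 and Crabp2 are higher in RPE cells with a Dcn UMI, although the intervals of Cyp26a1 in Dox overlap. Those of Dhrs3, Rarb and Rbp4 overlap in each library. Dotted lines mark 1.5-fold, and a triangle marks 0 UMIs, drawn at the level of 3.

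The genes whose levels were most like those of each member over 8 cell types in both libraries (16 points that share 2 libraries, among 5637 genes, Pearson correlation of log2 CPM) are given as a description. Cyp26a1 was followed by Tspan11, Klf5 and Cpxm1 (r of 0.96, 0.96 and 0.96), Crabp2 by Pdgfrl, Has1 and Igfbp6 (0.96, 0.90 and 0.90), Aldh1a1 by Col5a1, Efemp1 and Col16a1 (0.97, 0.96 and 0.94) and Aldh1a2 by Clmp, Cdh11 and Smoc1 (0.96, 0.96 and 0.95). Aldh1a3 was closest to Vwa1, Itgb4 and Nkd2 (0.95 to 0.94), and Cyp26b1 to Cytl1, Dlk1 and Aqp1 (0.97 to 0.94). Dhrs3 was closest to Rasgrp3 (0.94), Rarb to Sptbn1 (0.92) and Rbp4 to Hlf (0.87). Crabp1 had too few UMIs. Several of the genes nearest to Aldh1a1 encode matrix proteins.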

How the data were processed

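Tissue of RPE, choroid and sclera was dissociated and sequenced by the authors as 1 library per condition. Per the file headers and the methods, Cell Ranger (4.0.0) aligned reads to mm10, and the deposited values are raw UMI counts per gene and barcode. The methods also name a later Cell Ranger version. The annotation version is not given in the sources used here. The filter kept barcodes with more than 500 UMIs, between 200 and 6000 genes (both excluded), a mitochondrial share below 0.2 and a complexity (log10 of genes divided by log10 of UMIs) over 0.8. UMIs of each group were summed and given per 1000000 (CPM). Precision is that of counting at the depths given, and 1 library per condition allows no test.

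The 10 genes, the lists and the rules were chosen with earlier results of these data known. The 10 genes and 16 further ones were named by list (1 listed gene is not reported here), and the 3 most similar genes by the highest correlation, where 50 CPM was reached in a cell type in both libraries, for members with at least 200 UMIs. A gene counted as higher at 2-fold in both libraries (cell types) or 1.5-fold (Dox), with at least 20 UMIs. A group at 0 was taken at 3 UMIs. Medians used 0.5 added UMIs. Cells with marks of more than 1 type or kind were kept apart. Alternatives changed the filter, gates, doublets (top 10% of UMIs left out), denominator, summary and depth (2000 UMIs). The scripts were checked on simulated counts. Python 3.11.15, numpy 2.4.6, scipy 1.17.1, pandas 2.3.3 and matplotlib 3.10.9 were used. Gene positions are from GENCODE vM21 (GRCm38), promoters from RefSeq (GRCm38.p6).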

Additional observations from a re-analysis of the deposited data

Results flagged for a closer look

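Cyp26b1 is listed because its Dox over control ratio had opposite directions in different cell types. The log2 ratio was 0.593936 in fibroblasts, with 137 control and 162 Dox UMIs, against -1.45194 in endothelial cells, with 27 and 5 UMIs. The difference between them was not tested, since each condition has 1 library. In fibroblasts 68 of the 162 Dox UMIs lay in 8 cells, and the endothelial interval, -3.19 to -0.05, ends close to 0.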

How the results depend on the processing

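No paired analysis was possible because each condition has 1 library. The count of genes higher in RPE cells than in fibroblasts was 1 in all 12 alternatives run. Higher in fibroblasts than in RPE cells were 8 genes, 7 with purer gates or in RPE cells with no Dcn UMI (without Crabp1), 7 with the top 10% of UMIs left out (without Rarb), 6 with the mean of the cells' own CPM (without Cyp26b1 and Rarb) and 5 with cells thinned to 2000 UMIs (without Cyp26b1, Crabp1 and Rarb). Higher in fibroblasts than in the rest were 2 genes, and 4 with Dcn at 3 UMIs and 1000 CPM or with the mean of the cells' own CPM (Aldh1a1 and Rbp4 added). The count of genes that differed between Dox and control in fibroblasts, 1, was 0 with Rpe65 at 5 UMIs, with Dcn at 3 UMIs and 1000 CPM, with the top 10% of UMIs left out (Cyp26b1 at a log2 of -0.0409), with the mean of the cells' own CPM, and with thinning. In RPE cells it went from 5 to 3 with Rpe65 at 5 UMIs, with Dcn at 3 UMIs and 1000 CPM, with purer gates (under 500 CPM of the other gate's gene) and without the top 10%, to 2 with cells of both gates counted in both groups or the mean of the cells' own CPM, to 1 with thinning (Cyp26b1 at 0.43), and to 0 in RPE cells with no Dcn UMI, added after seeing the data, where 4 genes had 20 UMIs (Aldh1a2 at 0.46 and, under 20 UMIs, Cyp26a1 at 0.50, Crabp2 at -0.76 and Cyp26b1 at -1.99). Thinning leaves fewer UMIs, and the other causes were not tested. Of 802 log2 ratios under these alternatives, 650 stayed within their counting interval. Depth limits Crabp1, Cyp26b1 and Aldh1a3 and all values of Schwann cells.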
